A study of Mus musculus with 18 samples.

Results

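Isolated CpGs are the CpG dinucleotides that stand alone in the genome. Here they were the autosomal CpGs of the mouse assembly NCBIM37 with no other CpG cytosine seen in any of 18 libraries within 250 bp on either side, the other strand of the CpG itself not being counted. The rule took 682071 of the 19446232 autosomal CpGs seen in at least 1 library, which is 3.51%. It used positions only, so no methylation value entered the choice. The comparison class held the 14412499 CpGs (74.1% of those seen) with 1 to 9 other CpGs in the same span. Of the isolated CpGs, 662575 (97.1%) had no other CpG within 250 bp in the genome sequence either, and the other 19496 had neighbours that no library covered. The latter stood at 77.3% in control and 18.5% ± 0.768 in Dnmt1 KO at days 6 to 11, against 16.3% in Dnmt1 KO for those isolated in the sequence too, where each value is the percent of calls that were methylated.

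Whole-genome bisulfite sequencing measured the methylation of single cytosines in mouse embryonic stem cells that lost Dnmt1 and in control cells, over a time course. The labels give E14 as the background strain and ESC as the cell type of all 18 libraries, with the genotype Wildtype or Dnmt1 KO. The study's methods describe the Dnmt1 cells as embryonic stem cells with floxed Dnmt1 alleles on a C57BL/6 background, in which tamoxifen activates a Cre recombinase, and as cells grown in serum and LIF with or without feeder cells. Day 1, 3, 9 and 11 had 2 libraries of each genotype and day 6 had 1 of each, so that 9 control and 9 Dnmt1 KO libraries were compared. The series calls them biological replicates but does not say whether they came from separate cultures, and a difference between the cell lines and the loss of Dnmt1 cannot be told apart in this design. The deleted segment was visible in the coverage. At 39 CpGs of Dnmt1 (ENSMUSG00000004099.8, between chr9:20744012 and chr9:20745970) the control libraries had 6 to 29 calls each, the Dnmt1 KO libraries of day 1 had 4 in all, and the 7 Dnmt1 KO libraries of days 3 to 11 had 0.

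Methylation of CpGs is copied after replication by DNMT1, which acts on CpGs that carry the mark on the old strand only and restores it on the new strand. DNMT3A and DNMT3B place methylation without such a template, and both are known to favour some bases beside the CpG over others. Methylated cytosines deaminate easily to thymine, so most of the mammalian genome is poor in CpGs, and single CpGs far from any other are common in AT-rich sequence between genes.

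The depth was low, so levels were formed over groups of CpGs. Each library held 7190722 to 11158414 calls over all its cytosines, and 256697 to 382780 of these fell on isolated CpGs, or 0.376 to 0.561 calls per isolated CpG. A methylation level below is the percent of all calls in a group of CpGs that were methylated, and differences between levels are in percentage points. The widest exact (Clopper-Pearson) 95% interval of an isolated level in a library spanned 0.332 points, which covers counting error only. Mitochondrial CpGs, which served as a measure of unconverted cytosines, read 0.228% to 0.467% methylated per library. In control day 1 replicate 2 the isolated CpGs were covered 0.769 times as deeply as the comparison class, against 0.986 to 1.09 times in the other 17 libraries.

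The isolated CpGs lay mostly outside genes. Of the isolated CpGs, 67.2% were intergenic, 30.4% intronic, 1.34% exonic and 1.06% within 1 kb upstream of a transcript start, against 51.6%, 41.5%, 4.67% and 2.28% in the comparison class. Their median distance to the nearest CpG seen was 331 bp, and the median GC content of the sequence within 250 bp of them was 38.1%. The sequences of the 4 isolated CpGs farthest from another CpG seen in a library show how such a CpG reads in its surroundings. The 4 came from 44402 with calls in at least 5 libraries of each genotype, at most 20 calls in any library and 1 autosome set aside. They are given with 30 bases on either side in NCBIM37, on the plus strand, with the CpG in capitals.
Tusc3 intron, chr8:40238369-40238430: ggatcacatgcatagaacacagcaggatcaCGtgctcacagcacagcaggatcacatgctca
466011 bp from Ankrd7, chr6:19295567-19295628: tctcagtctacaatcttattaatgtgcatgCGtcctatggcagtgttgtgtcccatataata
1314891 bp from Pcdh9, chr14:92099810-92099871: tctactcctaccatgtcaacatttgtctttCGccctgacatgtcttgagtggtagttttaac
12168 bp from Cyp2c70, chr19:40273961-40274022: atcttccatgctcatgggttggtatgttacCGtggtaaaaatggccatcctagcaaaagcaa

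The CpG in the intron of Tusc3, a gene for a subunit of the oligosaccharyltransferase complex, was 4522 bp from the nearest CpG seen, although the sequence has a CpG 394 bp away that no library covered. Summed over libraries, it was methylated in 15 of 22 control calls, in 5 of 8 Dnmt1 KO calls at day 1, in 0 of 8 at day 3 and in 1 of 7 at days 6 to 11. The intergenic CpG beyond Ankrd7 was 1790 bp from the nearest CpG seen and 1348 bp from the nearest in the sequence, and it was methylated in 4 of 7 control calls and in 2 of 7 Dnmt1 KO calls at days 6 to 11. The CpG beyond Pcdh9, a protocadherin gene, had no other CpG for 1712 bp and gave 6 of 6 methylated control calls against 0 of 3 at days 6 to 11. The CpG near Cyp2c70, a cytochrome P450 gene, had none for 1669 bp and gave 5 of 6 against 1 of 3. At so few calls each of these CpGs shows only that both states were seen.

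The 4 isolated CpGs with the most calls were taken too, again without that autosome and with at most 20 calls in any library, because only deeply covered single CpGs have a level of their own.
2610005L07Rik intron, chr8:19972588-19972649: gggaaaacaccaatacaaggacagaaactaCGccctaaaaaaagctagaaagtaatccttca
Sfi1 intron, chr11:3062948-3063009: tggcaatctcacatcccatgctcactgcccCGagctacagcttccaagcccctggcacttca
Gm15319 intron, chr8:19935467-19935528: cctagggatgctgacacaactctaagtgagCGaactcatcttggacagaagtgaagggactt
second Sfi1 intron site, chr11:3066884-3066945: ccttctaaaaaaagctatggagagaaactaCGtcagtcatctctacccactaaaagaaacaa

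The CpG in 2610005L07Rik was methylated in 89 of 111 control calls and in 21 of 77 Dnmt1 KO calls at days 6 to 11, by way of 25 of 34 at day 1 and 9 of 35 at day 3. The CpG at chr11:3062978 in Sfi1, a gene for a centrosomal protein, went from 96 of 121 in control to 9 of 61. The CpG in Gm15319 was methylated in 53 of 107 control calls and in 3 of 56 Dnmt1 KO calls at days 6 to 11. The other CpG in Sfi1, at chr11:3066914, was hardly methylated in either genotype, with 4 of 104 control calls and 1 of 46 Dnmt1 KO calls at days 6 to 11. Over all isolated CpGs the median number of control calls, summed over the 9 libraries, was 4. These sites were therefore covered far more deeply than most, and whether reads from other copies of the sequence mapped there was not tested.

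In control cells most isolated CpGs were methylated, and in Dnmt1 KO cells most of that methylation was gone by day 3. In control the replicates read 81.1% and 79.2% (day 1), 78.4% and 78.3% (day 3), 82.6% (day 6), 80.6% and 78.2% (day 9), then 74.99% and 75.4% (day 11). In Dnmt1 KO they read 71.3% and 72.5% (day 1), 27.1% and 28.9% (day 3), 15.8% (day 6), 15.96% and 16.7% (day 9), then 16.3% and 16.9% (day 11). At every day all Dnmt1 KO libraries lay below all control libraries, and from day 6 on the Dnmt1 KO levels stayed within a narrow band. The mean of the 5 libraries of days 6 to 11, called the plateau here, was 16.3% ± 0.467 (SD, n = 5). Averaged over the 5 days, the level of isolated CpGs in Dnmt1 KO fell by 49.4 points relative to control, with lower values in 9 of 9 Dnmt1 KO libraries. Genotype labels were permuted within each day, and this exact two-sided test gave p = 0.00077, the smallest its arrangements allow, and 0.00103 after Benjamini-Hochberg adjustment over the 8 comparisons of this family. At any single day with 2 libraries a genotype, such an exact permutation test cannot go below p = 0.333, so days were not tested one by one.

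**Figure D1:**
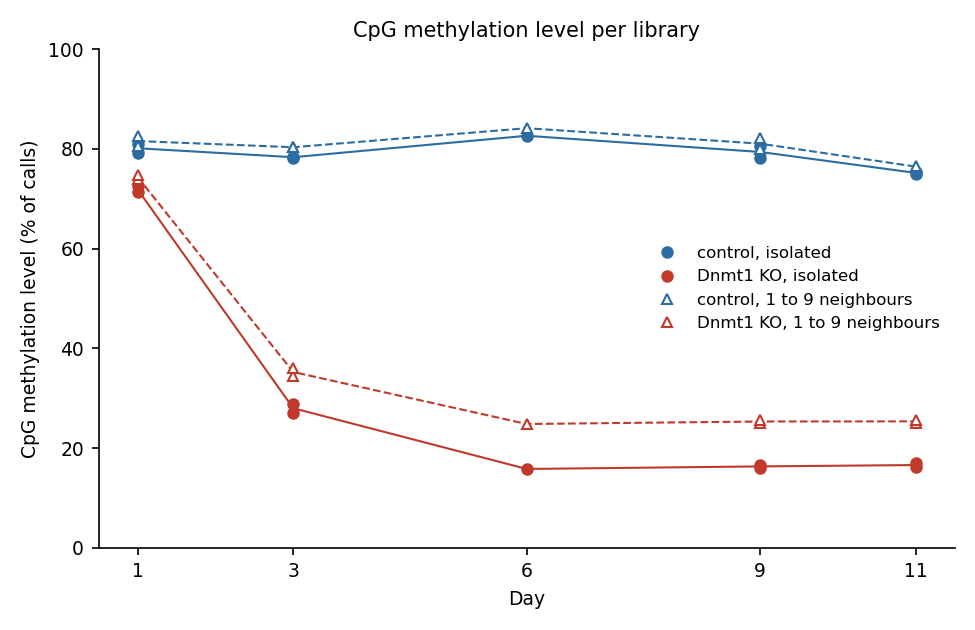
Methylation level of isolated CpGs and of CpGs with 1 to 9 other CpGs (percent of calls methylated, vertical axis) by day of the time course (horizontal axis), each point being 1 library. The control libraries of both classes lie between 74.99% and 84.2%, and the Dnmt1 KO libraries of day 6 on lie at 15.8% to 16.9% for isolated CpGs and 24.8% to 25.7% for the other class.

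The comparison class fell too, but it kept more methylation. In Dnmt1 KO it read 73.97% and 74.8% (day 1), 34.5% and 36.02% (day 3), 24.8% (day 6), 24.98% and 25.7% (day 9), then 25.1% and 25.6% (day 11). Its control libraries read from 76.3% to 84.2%. Over the days it fell by 43.7 points (exact permutation p = 0.00077, adjusted p = 0.00103). Expressed as a percent of the control mean of the same day, isolated CpGs in Dnmt1 KO were at 89.7% ± 1.096 on day 1, 35.7% ± 1.69 on day 3, 19.1% on day 6, 20.6% ± 0.655 on day 9 and 22.1% ± 0.582 on day 11 (SD, n = 2 except 1 on day 6). The comparison class was at 91.2% ± 0.708, 43.9% ± 1.32, 29.5%, 31.3% ± 0.618 and 33.2% ± 0.478. Isolated CpGs were thus the lower at each day, by least at day 1. On the log2 scale, the ratio of the isolated level to that of the comparison class differed between Dnmt1 KO and control by −0.43 on average, lower in 9 of 9 libraries (exact permutation adjusted p = 0.00103).

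Within a library the gap is the level of isolated CpGs minus that of the comparison class. In control it was small and negative in all 9 libraries, with −1.44 ± 0.110 points on day 1, −2.001 ± 0.110 on day 3, −1.52 on day 6, −1.66 ± 0.0919 on day 9 and −1.27 ± 0.0963 on day 11. In Dnmt1 KO it was −2.48 ± 0.3003 on day 1, −7.26 ± 0.259 on day 3, −9.02 on day 6, −9.01 ± 0.0190 on day 9 and −8.76 ± 0.0723 on day 11. No Dnmt1 KO library overlapped a control library of its day. The gap of −1.59 points in control differed from 0 when the classes were swapped within libraries (exact two-sided permutation p = 0.0039, the smallest that 9 libraries allow, adjusted p = 0.00446). The mean gap of −8.44 points in Dnmt1 KO from day 3 on, over 7 libraries, did as well (p = 0.0156 in the same exact test, the smallest that 7 allow, adjusted p = 0.0156). The gap in Dnmt1 KO minus that in control was −5.73 points (exact permutation p = 0.00077, adjusted p = 0.00103), and −5.71 without control day 1 replicate 2.

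Isolated CpGs lie in other parts of the genome than CpGs with neighbours, and the gap was therefore also taken between CpGs of the same surroundings. Within 1 Mb tiles it was −1.92 ± 0.218 points in control (n = 9) and −5.15 ± 0.210 at the Dnmt1 KO plateau (n = 5). Its difference between the genotypes over the 5 days was −2.74 points, in 9 of 9 libraries (exact permutation adjusted p = 0.00103), against −5.73 unmatched, so it was smaller within tiles. Among CpGs of the same GC content the gap was −2.01 ± 0.197 points in control and −6.35 ± 0.162 at the plateau, and its difference between the genotypes was −3.45 points (exact permutation p = 0.00077, in a comparison added after the data were seen). Among CpGs with the same base on either side it was −1.21 ± 0.296 points in control and −8.51 ± 0.139 at the plateau, with a difference of −5.70 points (adjusted p = 0.00103 in the exact permutation test). Matching by the base next to the CpG thus moved the difference between the genotypes little, whereas matching by tile or by GC content moved that difference by more than 1.5 times.

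**Figure D2:**
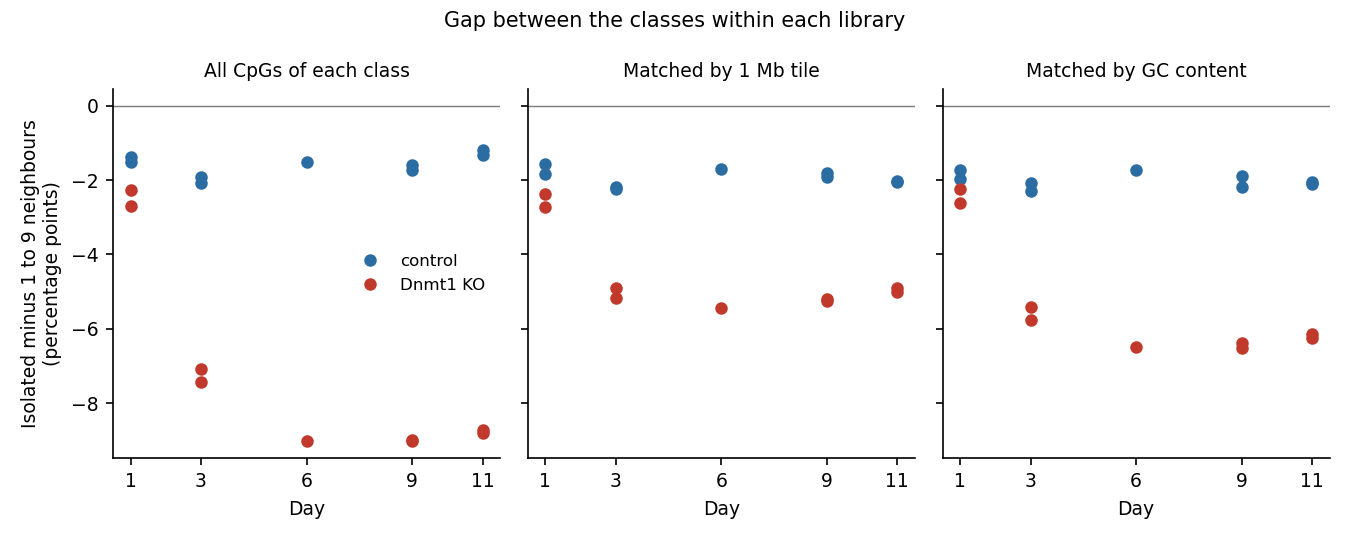
Isolated level minus the level of CpGs with 1 to 9 other CpGs (percentage points, vertical axis) by day, each point being 1 library, for all CpGs of the classes, within 1 Mb tiles and within classes of GC content. The points of day 1 lie near each other, and from day 3 on Dnmt1 KO libraries lie between −9.02 and −7.08 in the first panel and between −5.43 and −4.90 in the second, below all control libraries.

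From day 3 on, the level in Dnmt1 KO rose with each further neighbour, from none to 9. At the plateau it was 16.3% with no other CpG, 18.7% ± 0.446 with 1, 21.1% with 2, 23.4% with 3, 25.5% with 4, 27.1% with 5, 28.4% with 6, 29.0% with 7, 29.8% with 8 and 30.1% ± 0.568 with 9. At day 3 the same order ran from 28.0% to 38.4%. At day 1 of Dnmt1 KO it rose only as far as 5 neighbours, from 71.9% to 74.9%, and fell to 73.9% at 9. In control the levels likewise rose and fell again within a few points, at 78.8% ± 2.50 with no neighbour, 81.0% with 3 and 81.0% with 4, and 78.7% ± 2.50 with 9 (n = 9). Beyond the comparison class the plateau level rose no further, since CpGs with 10 to 24 others were at 28.3%. Their control level was lower as well, at 71.6% ± 2.40, and the levels were not taken as a percent of control here. These numbers are a description and were not tested.

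**Figure D3:**
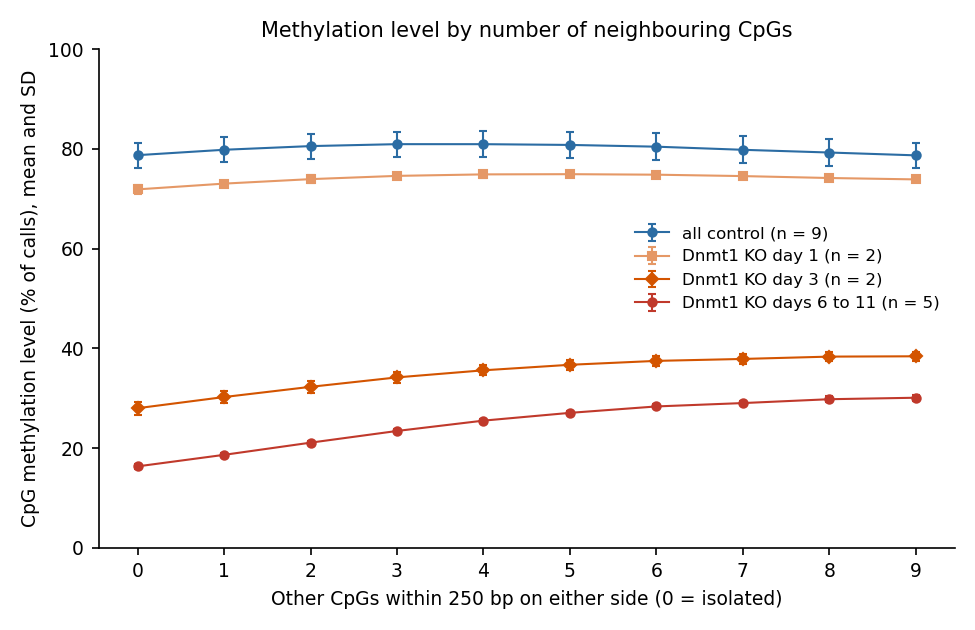
Methylation level (percent of calls methylated, vertical axis) by the number of other CpGs within 250 bp (horizontal axis), as mean ± SD over the control libraries (n = 9) and the Dnmt1 KO libraries of day 1 (n = 2), day 3 (n = 2) and days 6 to 11 (n = 5). The plateau rises from 16.3% at 0 to 30.1% at 9, and control stays between 78.7% and 81.0%.

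Among the isolated CpGs themselves, those farther from another CpG kept less. The 588846 with the nearest CpG within 500 bp were at 16.8% ± 0.452 at the plateau and 78.9% ± 2.51 in control. The 88502 with it farther off but within 1 kb were at 13.4% ± 0.564 and 77.9% ± 2.45. The 4723 with none seen within 1 kb were at 11.4% ± 1.16 and 76.5% ± 2.56, each library value resting on at least 1009 calls. To test this against control, the level of all isolated CpGs of the library was subtracted from that of the class, and the difference, called the deviation, was compared between the genotypes. The deviation moved by 0.231 points in the nearest class, by −1.47 points in the middle class and by −2.27 points in the farthest (adjusted p = 0.00463 for each in the exact permutation test over the 3 classes, 100% of which passed). The classes together make up the whole that was subtracted, and the nearest is most of it, so the 3 results are not independent. Where distances were taken from the genome sequence in place of the CpGs seen, the plateau levels were 16.8%, 13.4% and 10.6% ± 1.203, the last over the 2696 CpGs that have none within 1 kb in the sequence either.

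The level also differed with position relative to genes. At the plateau isolated CpGs were at 20.5% ± 0.6998 in exons (9123 CpGs), 18.9% ± 0.635 in introns (207073), 17.6% ± 0.634 in promoters (7240) and 15.0% ± 0.420 between genes (458635). In control these classes were at 79.7% ± 2.66, 79.3% ± 2.64, 77.4% ± 3.097 and 78.5% ± 2.44. The deviation from all isolated CpGs was higher in Dnmt1 KO than in control by 2.11 points in exons, 1.33 in introns and 1.74 in promoters, and it fell by 0.710 points between genes. All 4 classes (100%) passed the exact permutation test, with an adjusted p of 0.0177 for promoters and 0.00514 for each of the others. These classes also make up the whole that was subtracted, so the 4 results are not independent. At the plateau isolated CpGs were in every class below CpGs with 1 to 9 neighbours, which were at 29.3% in exons, 26.9% in introns, 22.9% in promoters and 23.5% between genes. In control the order was the other way in promoters, where CpGs with 1 to 9 neighbours were at 71.5% against 77.4% for isolated CpGs.

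The level at the plateau also went with the GC content within 250 bp of the CpG. Isolated CpGs were at 12.0% where GC was under 30%, 14.0% at 30 to 35%, 16.1% at 35 to 40%, 18.9% at 40 to 45%, and 20.5% ± 0.398 at 45% or more. CpGs with 1 to 9 neighbours were at 14.8%, 19.4%, 23.1%, 25.9% and 27.5% ± 0.428 in the same classes. In control the isolated levels of these classes ran only from 76.8% to 79.3%. The gap between the classes was thus present at each GC content.

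The low plateau was found across the genome. In 1 Mb tiles with at least 20 calls in every library of days 9 and 11, limma called the isolated CpGs lower in Dnmt1 KO in 2369 of 2369 tiles, or 100% (adjusted p under 0.05 and a change of at least 10 points). The median change was −59.5 points, and the tiles ran from −71.7 to −38.0. Within tiles, the gap at days 6 to 11 was called in 1638 of 2369 tiles (69.1%), with isolated CpGs lower in 1636 of them and higher in 2. The median gap was −5.18 points, its quartiles over the tiles were −7.07 and −3.51, and 97.7% of tiles were below 0. In the control libraries of the same days limma called 12 of 2390 tiles, 8 lower and 4 higher, with 573 at an unadjusted p under 0.05, a median of −1.71 points and 74.4% of tiles below 0. By chromosome, the isolated level at the plateau ran from 15.5% on chromosome 3 to 17.8% on chromosome 9, and isolated CpGs were below the comparison class on all 19 autosomes, by −7.49 points on chromosome 11 to −10.2 on chromosome 9.

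The 20 genes with the most isolated CpGs, 525 to 1146 each, included Cntnap2 and Nrxn3 for neuronal adhesion proteins, Dlg2 for a synaptic scaffold, Sgcz for a muscle membrane protein, and Fhit and Macrod2 for hydrolases. Over the 4 control libraries of days 9 and 11 their isolated CpGs were at 74.1% to 82.4%, and in the 4 Dnmt1 KO libraries at 9.13% to 18.1%, with a median of 12.3%. All 20 were called lower in Dnmt1 KO by limma, with changes from −67.9 to −62.3 points (adjusted p from 8.28e-08 to 9.13e-08), as were all 1579 genes tested (100%), whose median change was −59.5 points in a range from −80.05 to −29.97. In 18 of the 20 the Dnmt1 KO level was below that of all isolated CpGs of the same libraries, with a median deviation of −4.09 points over the 20 beside 2.61 points over the 1705 genes tested, of which 612 were below 0. None of the 20 deviations passed (limma adjusted p from 0.130 to 0.946). In control the median deviation of the 20 genes was −0.320 points, with 12 of 20 below 0.

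Cntnap2, a cell adhesion protein of the neurexin family that gathers potassium channels along axons, held the most isolated CpGs, 1146 over chr6:45010060-47251368 (ENSMUSG00000039419.10). Its control libraries read 79.96% and 76.1% at day 9 and 74.2% and 73.9% at day 11, and its Dnmt1 KO libraries 13.1% and 15.5%, then 12.5% and 12.4%. The change was −62.7 ± 3.54 points (limma SE, adjusted p = 8.28e-08), with no overlap between the genotypes. Sgcz, a sarcoglycan of the muscle membrane complex (ENSMUSG00000039539.6, chr8:38585352-39724562, 618 isolated CpGs), had the lowest deviation of the 20. Its Dnmt1 KO libraries read 8.11%, 9.39%, 9.28% and 9.76% against 78.8%, 75.7%, 77.5% and 74.0% in control, and it deviated by −7.33 ± 2.43 points (limma SE, adjusted p = 0.130). Lrrc4c, which encodes the netrin-G ligand NGL-1, was close to it with Dnmt1 KO libraries at 8.04%, 13.9%, 9.73% and 8.19% and a deviation of −6.49 points. The exceptions to the direction were Fhit, a diadenosine triphosphate hydrolase gene that spans a common fragile site, and Macrod2, which encodes a hydrolase that removes ADP-ribose. Fhit read 17.8%, 19.8%, 15.4% and 19.1% in Dnmt1 KO with a deviation of 1.58 points, and that of Macrod2 was 0.316 points. In control both deviated upwards by more, Fhit by 5.03 points and Macrod2 by 3.39.

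In the main fit a few genes were called higher than the rest at their isolated CpGs in Dnmt1 KO. Days 9 and 11 were used to pick them. How many genes were called depended on the settings, as given below. By limma, 3 of 1705 genes (0.176%) deviated from all isolated CpGs of the same Dnmt1 KO libraries of days 9 and 11 at an adjusted p under 0.05, all 3 upwards, and 451 did at an unadjusted p under 0.05. All isolated CpGs were at 15.96% to 16.9% in these libraries. A gene could therefore deviate downwards by no more than that, but upwards by more. Dock1, which encodes an exchange factor for the GTPase RAC (ENSMUSG00000058325.5, chr7:141862370-142365322, 54 isolated CpGs), read 50% and 55% at day 9 and 58.8% and 36.4% at day 11 in Dnmt1 KO. In control it read 78.4%, 83.9%, 100% and 71.4%, and its deviation in Dnmt1 KO was 33.6 ± 4.09 points (limma SE, adjusted p = 0.0474). It rested on 73 Dnmt1 KO calls in 4 libraries, and at day 3 and day 6 Dock1 deviated by 3.11 and 9.18 points.

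Usp24, a gene for a deubiquitinating enzyme (ENSMUSG00000028514.9, chr4:105988818-106113927, 27 isolated CpGs), read 36.8%, 46.2%, 42.9% and 57.1% in Dnmt1 KO at days 9 and 11 and 88%, 75%, 75% and 93.8% in control. Its deviation was 29.3 ± 3.604 points (limma adjusted p = 0.0474, 60 calls), with 13.5 points at day 3 and 7.26 at day 6. Smyd3, a lysine methyltransferase gene (ENSMUSG00000055067.8, chr1:180882091-181448172, 52 isolated CpGs), is the other gene that passed and is named here after its values were seen. It read 39.1%, 36.8%, 45% and 41.9% in Dnmt1 KO against 83.3%, 87.5%, 90.5% and 87.5% in control. Its deviation was 24.3 ± 2.70 points (limma adjusted p = 0.0474, 93 calls), with 20.7 points at day 3 and 19.7 at day 6, so that of these 3 genes it was the steadiest over the days. These calls depended on single libraries, since 1 gene passed without Dnmt1 KO day 11 replicate 2. Without any other of the 4 Dnmt1 KO libraries 0 passed. They also depended on the minimum of calls and on weights. A minimum of 20 calls per library, at which fewer genes were tested, gave 77. Weights by calls gave 290 of the same 1705 genes. The direction of these further calls was not counted.

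The other genes with the highest deviations did not pass: Ola1, an Obg-like ATPase, at 28.3 ± 4.16 points (limma adjusted p = 0.0599), Aatf at 27.1 ± 5.92 (adjusted p = 0.0748) and Filip1l at 26.0 ± 3.47 (adjusted p = 0.0593). At the other end, the isolated CpGs of Rfx6, a transcription factor of pancreatic endocrine cells (ENSMUSG00000019900.10, chr10:51397562-51450235, 27 isolated CpGs), were read as methylated in 1 Dnmt1 KO library of 4, at 0%, 9.09%, 0% and 0%, over 45 calls in all. In control Rfx6 read 80%, 73.3%, 71.4% and 73.3%, and its deviation in Dnmt1 KO was −14.2 ± 2.83 points (limma adjusted p = 0.0703). Folh1, a glutamate carboxypeptidase gene, deviated by −12.9 points, Gpm6a, a neuronal membrane glycoprotein gene, by −12.7, 4930430A15Rik by −12.6, and Gria2, which encodes a subunit of AMPA receptors, by −12.4 (limma adjusted p from 0.0748 to 0.0749). Gpm6a deviated in control as well, by −14.6 points, and Gria2 deviated by 7.15 points at day 3.

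**Figure D4:**
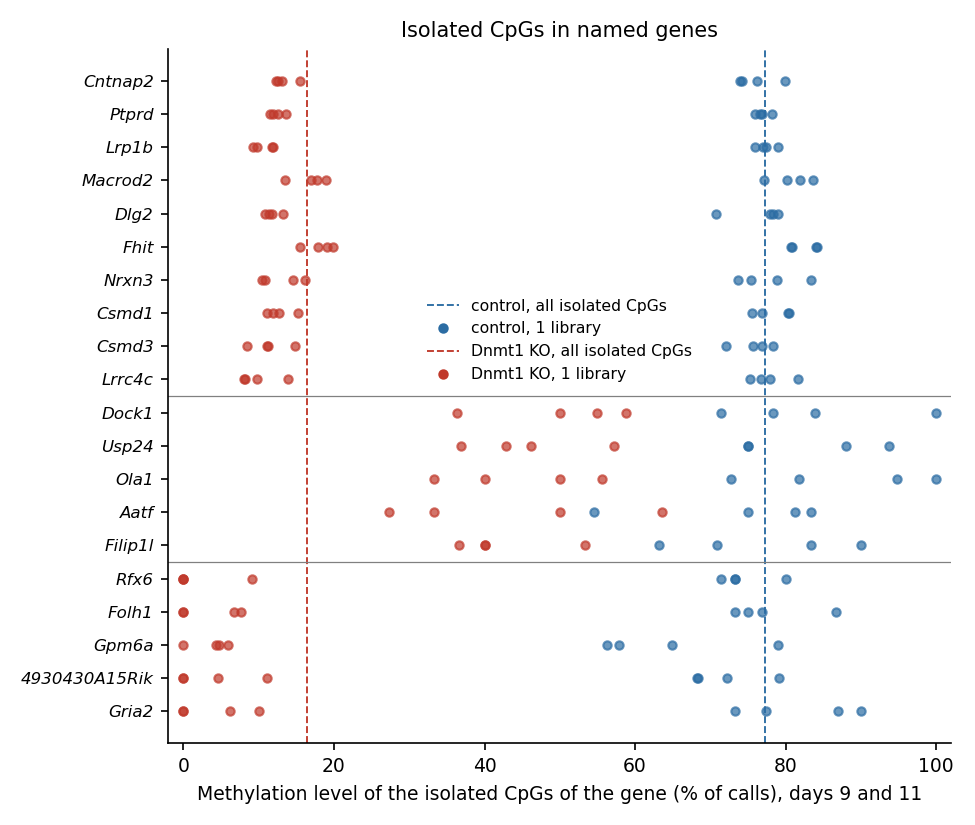
Methylation level of the isolated CpGs of 20 genes (percent of calls, horizontal axis) in the 4 control and 4 Dnmt1 KO libraries of days 9 and 11, each point being 1 library and the dashed lines the level of all isolated CpGs. The upper block holds the 10 genes with the most isolated CpGs, the middle block the 5 highest and the lower block the 5 lowest deviations in Dnmt1 KO, and the few calls of the lower blocks show in the spread of their points.

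The level also differed with the bases on either side of the CpG. Each isolated CpG was read on both strands, with the 16 contexts NCGN written 5′ to 3′ on the strand of the cytosine called. At the plateau CCGC was highest at 21.8% ± 0.522, followed by ACGC at 20.7% ± 0.736, and TCGT was lowest at 12.6% ± 0.327, before TCGA at 13.8% ± 0.594 and GCGA at 13.8% ± 0.589. In control the contexts ran from 74.7% for TCGT to 84.3% for GCGC. Unconverted cytosines, read at the mitochondrial CpGs of each context, were at 0.278% to 0.690% in Dnmt1 KO at days 6 to 11. Relative to all isolated CpGs of the library, 12 of 16 contexts (75%) differed between the genotypes in the exact permutation test at an adjusted p under 0.05. The contexts too make up the whole, so that a fall in some goes with a rise in others.

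In points relative to all isolated CpGs, the fall was largest in the contexts with G before the CpG. GCGA was 2.48 points above all isolated CpGs in control and −2.52 ± 0.155 points from them at the plateau, a change of −4.20 points over the days (adjusted p = 0.00309 in the exact permutation test). GCGG went from 4.26 above to −0.782 (change −3.89, exact permutation adjusted p = 0.00882), and GCGT from 2.45 above to −1.25 (change −2.92, exact permutation adjusted p = 0.00617). GCGC changed by −1.49 points (exact permutation adjusted p = 0.0337), although at 19.7% ± 0.827 it stayed above all isolated CpGs at the plateau. All 4 contexts with A before the CpG moved the other way, ACGA by 1.85, ACGT by 1.25, ACGC by 1.22 and ACGG by 0.787 points (exact permutation adjusted p from 0.00309 to 0.0108). Of the other contexts, TCGA (0.879), CCGC (0.807) and CCGA (0.349) rose and CCGT fell by 0.461, whereas CCGG (−0.0694), TCGC (−0.267), TCGG (−0.0232) and TCGT (0.0403) did not pass. Differences in points depend on the starting level, and the order changed when the plateau level was taken as a percent of the control level of days 6 to 11, in values added after the data were seen and not tested. All isolated CpGs were then at 20.8%, and the lowest contexts were TCGT at 16.98% and GCGA at 17.1%. Of the other contexts with G before the CpG, GCGT at 18.6% and GCGG at 18.7% lay below the whole, whereas GCGC lay above it at 23.4%. Of the contexts with A before the CpG, ACGC at 25.3% and ACGG at 23.5% lay above the whole, whereas ACGT at 20.1% and ACGA at 20.8% did not. With C after the CpG, CCGC at 26.1% and TCGC at 21.5% lay above the whole too, as did ACGC and GCGC. With a replicate block, whose adjusted exact p was 0.0682 for GCGC, 0.05 for CCGA, 0.0729 for CCGC and 0.05 for TCGA, these 4 calls were lost, and all but that of TCGA were also lost without some single libraries.

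An isolated CpG has both strands in the same place, so that the strands of a context pair differ in sequence but not in genomic surroundings. At the plateau ACGC was at 20.7% and its other strand GCGT at 15.1% ± 0.541, a difference of 5.60 ± 0.470 points that ran from 4.93 to 6.07 over the 5 libraries. In control the same strands were at 82.0% and 81.2%, 0.751 ± 0.426 points apart. CCGC exceeded GCGG by 6.25 ± 0.739 points (5.47 to 7.41), against 0.606 ± 0.580 in control. The strands that lay close together in control thus stood farther apart in Dnmt1 KO, with the cytosine preceded by G being the lower in each of these pairs. By base pairing, G before the CpG on a strand is C after it on the other. A lower level with G before and a higher level with C after therefore cannot be told apart in these pairs.

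The absolute strand difference was larger in Dnmt1 KO by 4.10 points for ACGC and GCGT and by 4.65 points for CCGC and GCGG (adjusted p = 0.00116 for each in the exact permutation test over 6 pairs). ACGA exceeded TCGT by 3.01 ± 0.287 points at the plateau and 1.095 ± 0.361 in control, and ACGG exceeded CCGT by 1.72 ± 0.457 at the plateau (increases of the absolute difference 1.81 and 1.25, exact permutation adjusted p = 0.00116). TCGC and GCGA changed order, with TCGC −0.907 ± 0.707 points relative to GCGA in control and 3.40 ± 0.217 above it at the plateau, a change of the absolute difference of 1.98 points (exact permutation adjusted p = 0.00463) and of the signed one of 3.94 points (exact permutation adjusted p = 0.000926). CCGA and TCGG were 1.23 ± 0.416 points apart at the plateau and 1.02 in control, and this pair did not pass (change 0.372, exact permutation p = 0.139). In all, 5 of 6 pairs (83.3%) passed. The differences were present at day 3, at 5.95, 6.74 and 4.47 points for the pairs ACGC and GCGT, CCGC and GCGG, and TCGC and GCGA. The CpGs with 1 to 9 neighbours had them too, at 7.96 ± 0.648, 8.94 ± 1.11 and 6.25 ± 0.773 points at the plateau, so they were not particular to isolated CpGs.

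With 2 bases on either side the range widened. The contexts below were picked as the 3 highest and 3 lowest of the 225 without another CpG, by their plateau level, so their plateau levels are a description. TCCGGC was at 34.4% ± 3.64, TACGGC at 33.5% ± 2.56 and TACGCC at 32.3% ± 1.0996. The lowest were AACGTT at 7.62% ± 0.982, a palindrome that reads the same on both strands, AACGTG at 8.08% ± 0.637 and ATCGTG at 8.30% ± 0.859. In control the highest 3 were at 85.5%, 85.6% and 84.6% and the lowest 3 at 63.9%, 71.5% and 75.5%, within a range of 63.9% to 87.3% for all contexts. The Dnmt1 KO libraries of day 3, which took no part in the choice, gave TCCGGC 46.3% and 46.6%, TACGGC 44.3% and 46.7%, and TACGCC 42.4% and 42.3%. They gave AACGTT 16.4% and 15.8%. The highest 3 were among the 5 highest of day 3, and the lowest 3 among its 12 lowest.

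The strand mattered in these contexts as well. GCCGGA, the other strand of TCCGGC, was at 16.2% ± 0.858 at the plateau and at 83.9% in control. GGCGTA, across from TACGCC, was at 18.3% ± 1.83, and GCCGTA, across from TACGGC, at 23.0% ± 1.60. Over the 105 pairs of strands with 2 bases on either side, the median absolute difference was 4.77 points at the plateau and 1.14 in control, and the largest 18.1 and 6.93. At the plateau 47 pairs were over 5 points apart, against 1 in control. For all 47 the same strand was the higher at day 3 of Dnmt1 KO, and for 35 of them in control.

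**Figure D5:**
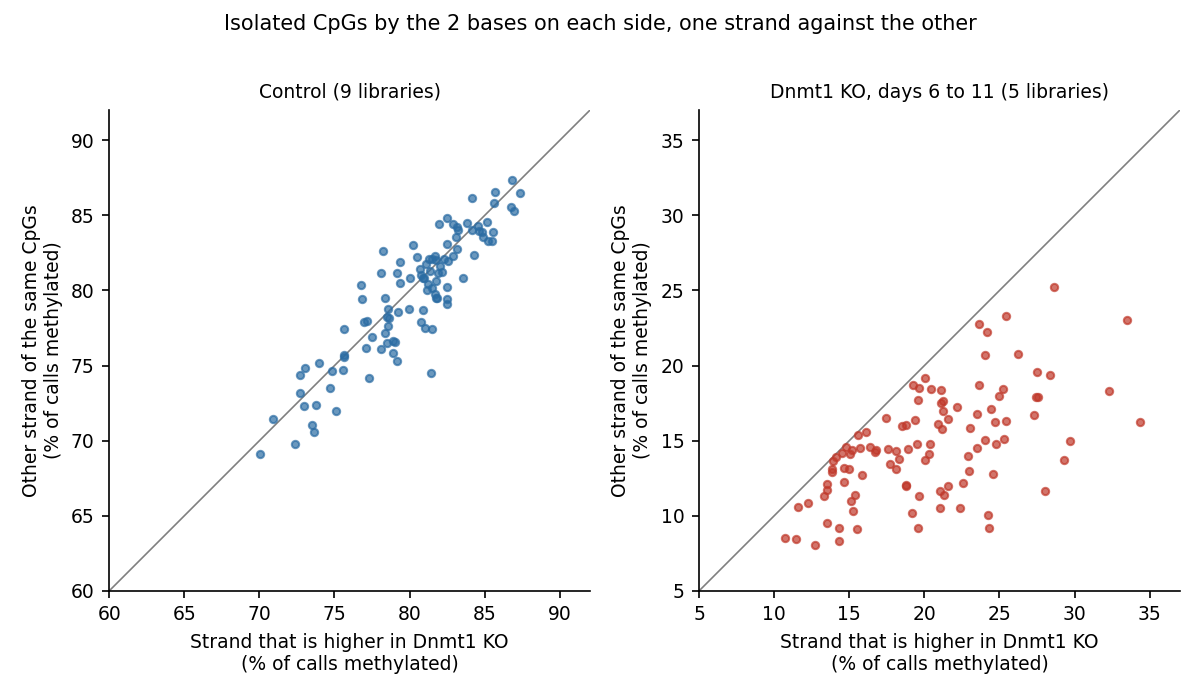
Level of isolated CpGs with the same 2 bases on either side on the strand that is higher at the Dnmt1 KO plateau (percent of calls methylated, horizontal axis) and on the other strand of the same CpGs (vertical axis), for 105 pairs, in control (mean of 9 libraries) and at the plateau (mean of 5). The Dnmt1 KO points lie below the line of equal strands because of how the axes were assigned, and what differs is their distance from it, a median of 4.77 points against 1.14 in control.

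Single isolated CpGs had levels of their own only where calls were many. With at least 10 calls summed over the control libraries, 15239 CpGs had a level, of which 60.7% were at 80% or more and 1.31% at 20% or less. With at least 10 calls over the 5 plateau libraries, 582 had a level, of which 23.2% were at 0%, 72.9% at 20% or less, 26.98% between 20% and 80%, and 0.172% at 80% or more. At calls near this minimum counting error adds to the spread, by an amount that was not estimated. The 582 were not the same set of CpGs as the 15239. These 582 were covered more deeply than most, since the median isolated CpG had 2 calls over the plateau libraries, and whether reads from other copies of their sequence mapped there was not tested. Among CpGs with both values, those at 80% or more in control (108 CpGs) were at 18.5% at the plateau when their calls were summed, those between 20% and 80% (163) at 12.6%, and those at 20% or less (9) at 1.80%.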

How the data were processed

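Bisulfite libraries of 9 control and 9 Dnmt1 KO samples were grouped by genotype and day from their labels. The deposited files hold counts of methylated and unmethylated calls per cytosine and strand, and the percent methylated that the authors derived from these counts. Per the labels and the study's methods, the authors trimmed the reads with Trim Galore, aligned them to NCBIM37 with Bismark (version 0.12.3 in the processing notes, a later one in the methods), removed duplicates and extracted CpG calls. At a low depth, a cytosine mostly has 0 or 1 calls in a library, so calls were summed over classes of CpGs. Cytosines outside a CpG of the sequence were left out. Annotation was GENCODE on NCBIM37.

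Libraries were the replicates. Class levels were compared by exact two-sided permutation of genotype within days, or by sign flips within libraries, and gaps were matched with Mantel-Haenszel weights. Tiles and genes (minimum 20 and 10 calls per library used) were fitted with limma 3.58.1 in R 4.3.3, with Python 3.11.15, numpy 2.4.6, pandas 2.3.3 and scipy 1.17.1 for the rest. Calls needed a Benjamini-Hochberg adjusted p under 0.05, and for tiles and genes between genotypes also 10 points. The limma fits were tried on simulated binomial counts with known changes and the same starting level for all tiles or genes. Those counts held no other variation between libraries, tiles or genes, so they cannot vouch for the calls in the real data. Named were the 20 genes with the most isolated CpGs, the 5 highest and 5 lowest deviations, 8 single CpGs (chromosome 18 set aside), all contexts NCGN, and the 3 highest and 3 lowest contexts NNCGNN. The members, lists and tests were chosen with earlier results of these data known. Alternatives were the span, the neighbours in the sequence, limits on calls, single strands, tile size, the replicate block and each library left out.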

Additional observations from a re-analysis of the deposited data

Results flagged for a closer look

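In Dnmt1 KO day 11 replicate 1 the context CCGC was 5.95 points above all isolated CpGs of its library, apart from the other 4 libraries of days 6 to 11. Among the 70 groups of 4 to 10 libraries examined it was the only one with a library set so far apart, and chance gives such a library in about 1 of 20 groups.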

How the results depend on the processing

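Over 61 values of the main results under other settings, 57 kept their direction, their side of the threshold and, for counts, a value within 1.5 times the main one. The other 4 were counts: with 2 Mb tiles 1221 tiles were called lower in Dnmt1 KO, and with a minimum of 20 calls 759 genes were (fewer tiles and genes were tested). Deviating genes numbered 77 with a minimum of 20 calls, where fewer genes were tested too, and 290 of 1705 with calls as weights (the cause was not tested). The decrease at isolated CpGs ranged from −50.9 to −47.6 points over these settings and the gap between the genotypes from −6.95 (CpGs with at least 3 calls) to −3.45 (matched by GC content, added after the data were seen), with −4.45 for a span of 500 bp. Leaving out each library gave −49.7 to −45.1 and −5.77 to −5.28 points, and the deviating genes numbered 0 to 1. The gap within tiles was called in 1112 to 1799 tiles over other settings. Tile size and the minimum of calls change how many tiles are tested, so these counts are not shares of the same whole. With each of the 5 Dnmt1 KO libraries left out in turn, it was called in 1291 to 1436 tiles, against 1638 with all 5. Single contexts that did not pass changed sign without some libraries, CCGG from −0.190 to 0.0509, TCGG from −0.101 to 0.0541 and TCGT from −0.0689 to 0.150. Without single libraries GCGC lost its call in 3 of 18 fits (control day 6, Dnmt1 KO day 6 or Dnmt1 KO day 1 replicate 2 left out), at −1.38 to −1.33 points. CCGC lost it in 8, at 0.695 to 0.782 points, namely without replicate 2 of control day 1, replicate 1 of control day 3, 6 or 9, replicate 1 of Dnmt1 KO day 1, 6 or 11, or replicate 2 of Dnmt1 KO day 3. CCGA lost it in 10, at 0.288 to 0.364 points, namely without replicate 1 of control day 3 or 6, replicate 2 of control day 11, either replicate of Dnmt1 KO day 1 or 3, the Dnmt1 KO library of day 6, or replicate 2 of day 9 or 1 of day 11 in Dnmt1 KO. Where a library of day 6 is left out, that day drops out of the comparison. The deviations of libraries with the same replicate number correlated by −0.00507 to 0.0180 over 2351 tiles. Between replicates, tiles of isolated CpGs varied about as much as counting error gives (mean chi-square 0.938 to 1.06). Such a correlation would be near 0 with or without pairing, so it cannot tell whether replicate numbers pair the samples. Tiles of the comparison class varied by more than counting error between replicates (mean chi-square 1.48 to 1.63). The isolated levels of whole libraries also differed beyond it, as with 80.6% and 78.2% in control at day 9. With a replicate block the gap stayed at −5.73 points (exact p = 0.0039) and 8 contexts passed in place of 12, while 2369 tiles and 1579 genes were called as without it. Leaving out annotated repeats was not run, because the sequence used here does not mark them. The depth limits single CpGs and genes with few isolated CpGs, not the class levels.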
